A study of Mus musculus with 12 samples.

Results

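The Hippo pathway genes examined here, the LATS kinases Lats1 and Lats2, the coactivators Yap1 and Wwtr1 (which encodes TAZ), the DNA-binding partners Tead1, Tead2 and Tead4, the angiomotin-like genes Amotl1 and Amotl2, and Ccn1, were followed in mouse embryonic stem cells (ESCs) with and without Dgcr8. They were chosen by name, and all 10 were found by gene identifier among the 51467 gene rows of the count table. Dgcr8 encodes a subunit of the nuclear complex that cuts primary microRNA transcripts, so cells without it lack canonical microRNAs. All cells were ESCs grown in serum with LIF and the inhibitors PD0325901 and CHIR99021 (2i), and all were given 4-thiouridine (4sU), a uridine analogue that enters newly made RNA, at 500 uM for 30 min. RNA of each sample was divided, and 4sU-labelled RNA was captured as a measure of nascent transcription (4sU libraries), while RNA depleted of ribosomal RNA gave the steady-state level (total libraries). The 4 groups were wild-type total, Dgcr8 KO total, wild-type 4sU and Dgcr8 KO 4sU, with 3 replicates each and 12 libraries in all. Per the methods of the study, the wild-type cells were the V6.5 line and the Dgcr8 KO cells a single existing line, and nothing says that replicates were separate clones, so p-values measure the spread between these samples only. The labels call the KO cells DGCR8 KO by genotype, but their source names read DDX8KO.

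The Hippo pathway is a kinase cascade in which the MST kinases activate LATS1 and LATS2, and these phosphorylate YAP and TAZ. Phosphorylated YAP and TAZ are held in the cytoplasm or degraded, whereas the unphosphorylated forms enter the nucleus and act on genes through TEAD factors. In the early mouse embryo the pathway separates the outer trophectoderm, where YAP and TEAD4 are active, from the inner cell mass from which ESCs are derived. Angiomotin family proteins bind YAP and LATS at cell junctions, and Ccn1, a secreted matrix protein, is a widely used readout of YAP and TEAD activity, as is Amotl2.

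ESCs express microRNAs of the ESC-specific cell cycle (ESCC) family, which share the seed AAGUGCU at bases 2 to 8, and the miR-17 family, whose seed AAAGUGC is shifted by a base. The mature sequences below (RefSeq, GRCm38.p6) are shown because their seeds define the sites searched, with the seed in capitals.
mmu-miR-291a-3p: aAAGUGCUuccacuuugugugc
mmu-miR-294-3p: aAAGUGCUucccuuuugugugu
mmu-miR-295-3p: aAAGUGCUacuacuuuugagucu
mmu-miR-302b-3p: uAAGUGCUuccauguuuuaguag
mmu-miR-17-5p: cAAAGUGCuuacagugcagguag
mmu-miR-93-5p: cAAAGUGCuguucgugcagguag

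Sites complementary to the ESCC seed (AGCACTT as a 7mer, GCACTTA as the other form of 7mer, and AGCACTTA as the 8mer) were present in the longest annotated 3′ UTR of 4 of the 10 genes: Lats1, Lats2, Wwtr1 and Amotl1. Among the 11807 protein-coding genes that were tested and have an annotated 3′ UTR, 21.3% held such a site. Lats2 was the only member with 2 of them, and the only one with an ESCC 8mer, a form found in 3.68% of the genes. The median 3′ UTR of the members was 2105 bases, against 1201 bases over all of these genes, and the members ranged from 690 bases in Ccn1 to 8147 bases in Tead1. The ESCC sites are printed with flanking bases, the site in capitals (sense strand, GENCODE M21 on mm10).
Lats2, chr14:57691086-57691093, minus strand, 8mer: agtatggaaagAGCACTTAttttgtggata
Lats2, chr14:57690988-57690994, minus strand, 7mer: ttgtatctgatAGCACTTgtccacagctag
Lats1, chr10:7714156-7714162, plus strand, 7mer: ctcagtggtagAGCACTTgcctaacataca
Wwtr1, chr3:57457022-57457028, minus strand, 7mer: ctctctctctgAGCACTTcaagagagacaa
Amotl1, chr9:14544835-14544841, minus strand, 7mer: taaaggctgtgGCACTTAgtggtggttggc

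The Lats2 sites began at bases 195 and 294 of a 3′ UTR of 1626 bases, near the stop codon. In Lats1 the site began at base 1146 of 3450, in Wwtr1 at base 1898 of 3277 and in Amotl1 at base 2951 of 5826. Sites for the miR-17 seed (GCACTTT as a 7mer, CACTTTA as the other form of 7mer, and GCACTTTA as the 8mer) were found in 3 members, Yap1 (a 7mer), Wwtr1 (an 8mer) and Tead1 (an 8mer), against 22.4% of the genes. Tead2, Tead4, Amotl2 and Ccn1 held neither kind in their longest 3′ UTR, the shortest of which were those of Ccn1 (690 bases) and Tead2 (716 bases). A match to a seed is a description of the annotation and was not tested as a microRNA site.

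**Figure D1:**
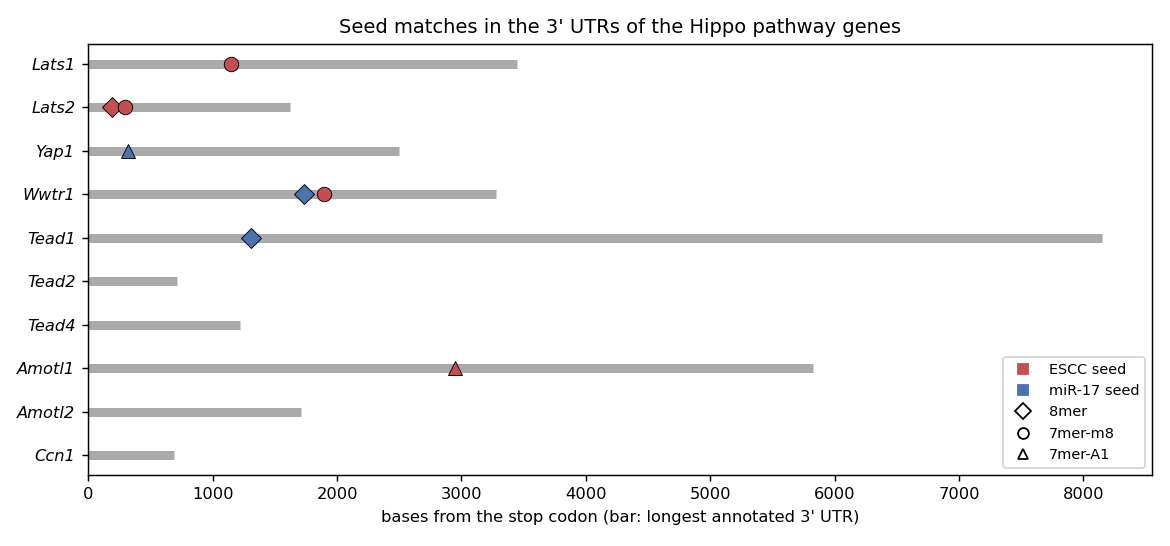
Position of seed matches along the longest annotated 3′ UTR of each Hippo pathway gene, in bases from the stop codon (grey bar, the whole 3′ UTR). Red marks are ESCC matches and blue marks miR-17 matches, with the shape giving the kind of site. Lats2 carries a pair of red marks near the start of its 3′ UTR, and 4 genes carry no mark.

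Total counts per library ranged from 4593914 to 9295245, and each member had between 119 and 4990 reads in every library, so none was near the floor of 3 counts. Dgcr8 itself was lower in the libraries labelled Dgcr8 KO, with log2 changes of -1.60 in total RNA (limma adjusted p = 6.63e-17) and -0.51 in nascent RNA (limma adjusted p = 1.95e-06). Markers of ESCs summed to 4464 to 4562 CPM (counts scaled to library size and TMM factor) in wild-type total libraries and 4487 to 4572 CPM in KO total libraries, and all 7 were expressed. In total RNA 3 were called higher in KO cells (Pou5f1, Sox2 and Zfp42), against 27.2% of all genes tested. The other 4 were called lower (Nanog, Esrrb, Tfcp2l1 and Klf4), against 36.7% of all genes. Their 4sU sums were 5300 to 5394 CPM in wild-type and 6044 to 6700 CPM in KO libraries, with 6 called higher, against 28.3% of all genes. Markers of feeder fibroblasts summed to 10.97 to 13.27 CPM in wild-type and 5.45 to 6.784 CPM in KO total libraries, with Col1a2, Col3a1, Dcn and Postn at 3 counts or fewer in every library. The trophectoderm markers summed to 84.1 to 93.5 CPM in wild-type and 106.6 to 107.8 CPM in KO total libraries, with Elf5 at 3 counts or fewer throughout. The higher sum came from the keratin gene Krt8, which rose from 9.32 ± 1.45 to 52.6 ± 2.42 CPM (SD, n = 3; log2 change 2.49, limma adjusted p = 3.94e-17). Of the other 4 trophectoderm markers tested, Tfap2c fell from 56.1 ± 5.24 to 35.0 ± 0.844 CPM and Gata3 from 4.52 ± 0.367 to 2.99 ± 0.302 CPM in total RNA, while Eomes and Krt18 did not pass the test. Primitive endoderm markers summed to 7.03 to 9.02 CPM in wild-type against 9.99 to 12.9 CPM in KO total libraries. Of these, Pdgfra rose from 0.95 ± 0.42 to 4.5 ± 1.3 CPM (SD, n = 3) in total RNA, and Gata4 did not pass the test there. Pdgfra had 3 to 11 counts in wild-type total libraries, down to the floor, and entered the test only through KO libraries. In nascent RNA Pdgfra did not pass (limma adjusted p = 0.0591) and Gata4 did (limma adjusted p = 0.00585). Sox17 (1.49 against 0.41 CPM) and Gata6 (0.60 against 0.23 CPM), too low to be tested, had lower means in KO libraries. Primed epiblast markers summed to 131.9 to 144.1 CPM in wild-type against 89.3 to 93.4 CPM in KO total libraries. The primed sum was in the opposite order in 4sU libraries, at 66.5 to 70.8 CPM in wild-type and 73.4 to 82.6 CPM in KO libraries. In total RNA Dnmt3b fell from 114.6 ± 5.35 to 61.6 ± 2.20 CPM and Pou3f1 from 5.63 ± 1.01 to 1.08 ± 0.444 CPM, whereas Otx2 rose from 16.6 ± 1.37 to 28.1 ± 2.62 CPM (SD, n = 3). Pou3f1, with 6 to 12 counts in KO total libraries, was tested because of its wild-type levels. Parts of these marker changes thus rest on low counts. The part of these marker genes in the results below was not tested, and in such bulk samples fewer cells of a type and less RNA per cell cannot be told apart.

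In wild-type total RNA, Hippo pathway genes spanned a range of levels per length. Tead2 had the highest mean at 76.4 ± 3.35 RPKM (reads scaled to gene length and library size, SD, n = 3). Amotl2 followed at 67.5 ± 4.07 RPKM and Yap1 at 56.5 ± 2.59 RPKM. Below them came Ccn1 at 30.2 ± 2.08, Wwtr1 at 25.8 ± 0.941, Tead4 at 14.7 ± 0.405, Tead1 at 14.6 ± 0.944 and Amotl1 at 10.3 ± 0.396 RPKM. The kinases stood lowest, Lats1 at 5.82 ± 0.453 RPKM and Lats2 at 3.54 ± 0.0796 RPKM. The replicates of neighbours in this order did not overlap, except those of Tead4 and Tead1. In Dgcr8 KO total RNA the order was Yap1, Amotl2, Ccn1, Tead2, Wwtr1, Tead4, Tead1, Lats2, Lats1 and Amotl1, with overlap of replicates only between Tead2 and Wwtr1. Lats2 reached 13.9 ± 1.38 RPKM there, and Amotl1 stood last at 3.48 ± 0.175 RPKM.

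To ask which of these genes change at steady state without microRNAs, total libraries were compared between genotypes, with limma fitted to 14033 genes and a gene called at an adjusted p under 0.05. Of the 10 members, 4 were higher in Dgcr8 KO cells (Lats1, Lats2, Tead4 and Ccn1), against 27.2% of all genes tested. Another 3 were lower (Tead2, Amotl1 and Amotl2), against 36.7% of all genes. Yap1, Wwtr1 and Tead1 did not pass the test. At the additional limit of the study, an absolute log2 change over 1, 3 members were called (Lats2, Tead2 and Amotl1), against 17.2% of all genes. The median log2 change of the members was 0.09, and that of all genes was -0.09.

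The same comparison of 4sU libraries gave 6 members higher in Dgcr8 KO cells (Lats2, Yap1, Wwtr1, Tead4, Amotl2 and Ccn1), against 28.3% of all genes, and 2 lower (Tead2 and Amotl1), against 28% of all genes. Lats1 and Tead1 did not pass the test. With the limit on size, 2 members were called (Tead2 and Amotl1), against 14.8% of all genes. The median log2 change of the members was 0.24, and that of all genes was -0.02.

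Stability was taken as total over 4sU signal, and its change as the interaction of genotype and library type. It rose for 2 members (Lats1 and Lats2), against 5.02% of all genes, and fell for 3 (Yap1, Tead4 and Amotl2), against 11.1% of all genes. No member had a stability change over 1 on the log2 scale, against 1.76% of all genes called at that limit. The median log2 change of the members was -0.22, and that of all genes was -0.09. The 3 comparisons share libraries, so their values are given side by side and not as separate evidence.

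**Figure D2:**
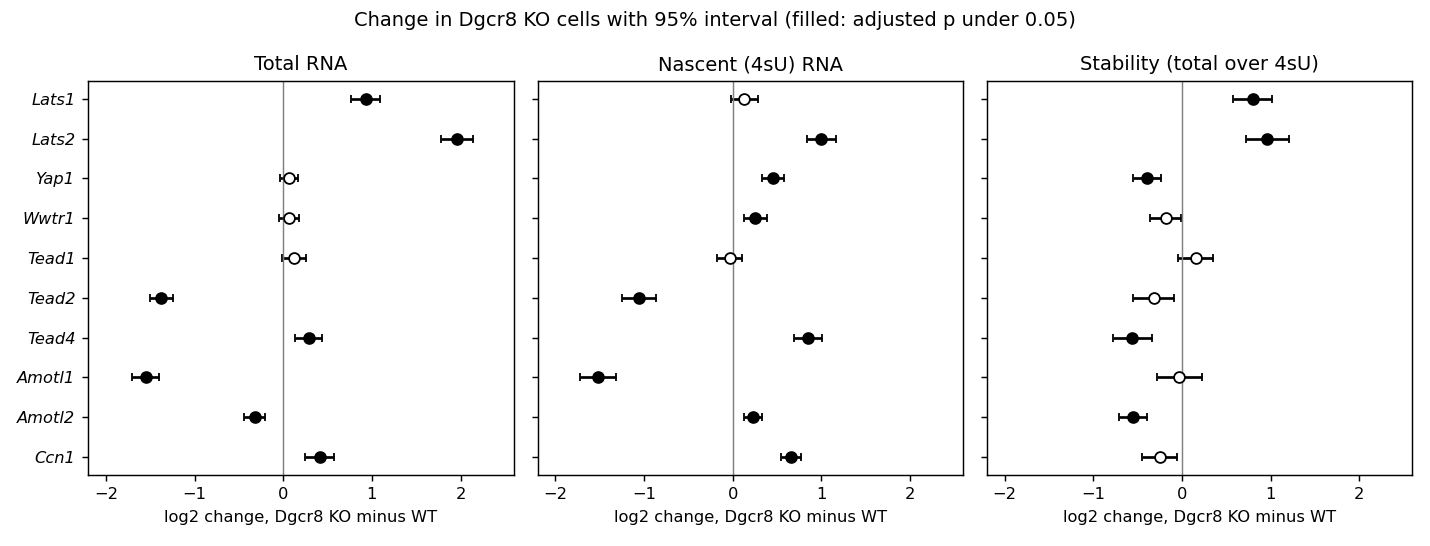
Log2 change in Dgcr8 KO against wild-type cells of each Hippo pathway gene in total RNA, nascent RNA and stability, with 95% intervals from limma (n = 3 per group). Filled points have an adjusted p under 0.05. Lats1 and Lats2 lie right of 0 for stability, Yap1, Tead4 and Amotl2 lie left of it, and Tead2 and Amotl1 lie left of 0 in both total and nascent RNA.

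The kinases are described first. Lats2 (ENSMUSG00000021959.15, mm10 chr14:57689662-57746123, minus strand), which phosphorylates YAP and TAZ, had 22.3, 23.3 and 23.1 CPM in the wild-type total libraries and 91.1, 98.0 and 80.3 CPM in the KO total libraries. The genotypes were far apart, with every KO library above every wild-type library. This was a 3.90-fold rise (log2 change 1.96, SE 0.0889, limma adjusted p = 1.3e-18), at the 96.9 percentile of the changes of all genes. In 4sU RNA, Lats2 had 55.8, 53.1 and 50.2 CPM in wild-type and 108.6, 105.5 and 104.5 CPM in KO libraries. It rose there by a smaller factor, 2.00-fold (log2 change 1.00, SE 0.0796, limma adjusted p = 3.03e-12), which lies just under the limit on size at 0.9996. Its stability rose by 0.96 on the log2 scale (limma adjusted p = 5.93e-07, SE 0.119), or 1.95-fold, at the 98.0 percentile of all genes. Among the 434 genes with an ESCC 8mer the median stability change was 0.17 on the log2 scale. It was 0.01 among genes with ESCC 7mers only and -0.13 among genes with no ESCC site. Of the 434 genes, 20 had a stability change above that of Lats2.

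Lats1 (ENSMUSG00000040021.13, chr10:7681214-7716460, plus strand), the paralogous kinase with a single ESCC 7mer, had 46.21, 41.21 and 39.97 CPM in wild-type total libraries and 75.6, 82.4 and 83.6 CPM in KO total libraries. The groups did not overlap, and the rise was 1.90-fold (log2 change 0.93, SE 0.0796, limma adjusted p = 7.97e-12). Its 4sU values were 103.9, 87.4 and 91.1 CPM in wild-type and 103.6, 109.1 and 97.5 CPM in KO libraries. These overlapped, and the nascent log2 change of 0.13 did not pass the test (95% interval -0.02 to 0.28, limma adjusted p = 0.135). Without replicate 1 of the wild-type cells it did (log2 change 0.20, limma adjusted p = 0.0378, with a range of 0.0378 to 0.493 over the 16 alternatives run). The stability of Lats1 rose by 0.80 on the log2 scale (limma adjusted p = 3.18e-06, SE 0.109), at the 97.0 percentile of all genes. Lats2 rose in both nascent RNA and stability, whereas Lats1 passed the test in total RNA and stability but not in nascent RNA; the difference between the 2 genes was not tested.

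**Figure D3:**
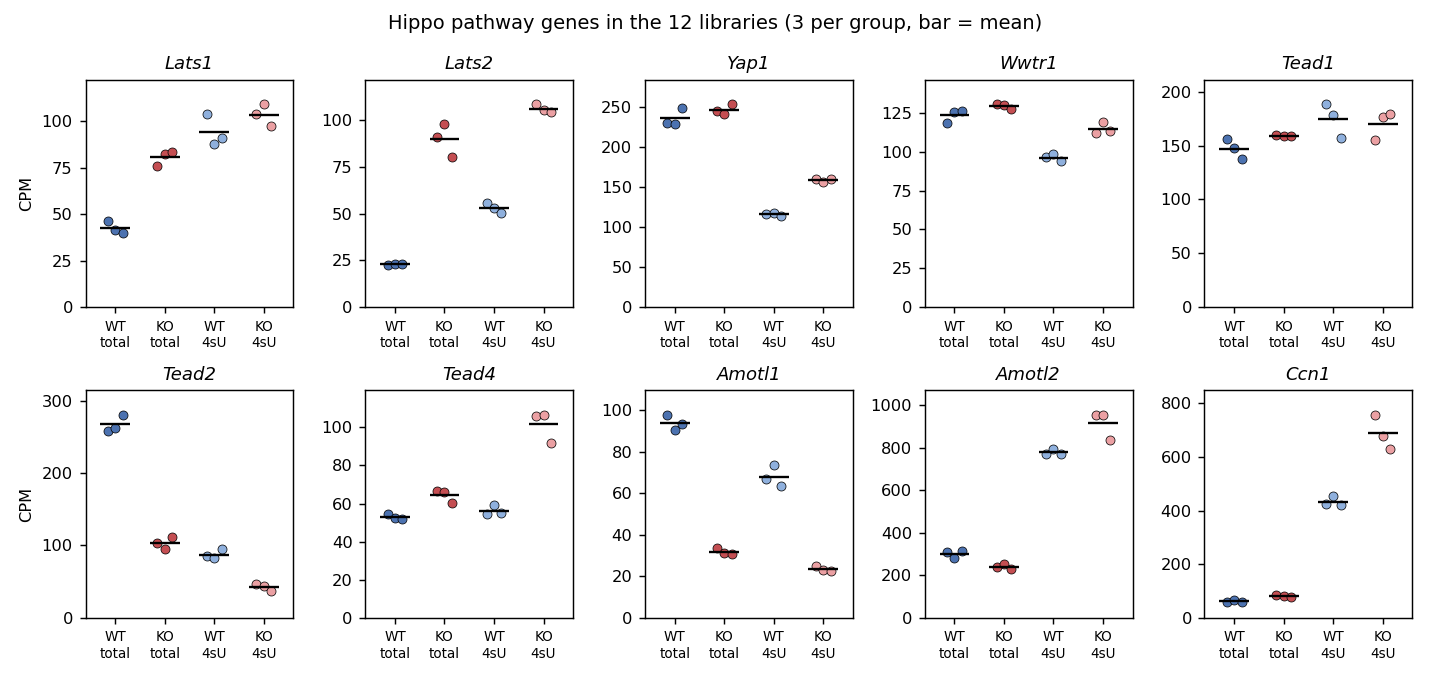
Level of each Hippo pathway gene in the 12 libraries, in CPM scaled by TMM factors, on axes that start at 0. Points are replicates and bars are means of the 4 groups (WT, wild-type; KO, Dgcr8 KO). The KO total points of Lats1 and Lats2 lie above the wild-type total points, and those of Tead2 and Amotl1 lie below them. Means of Amotl2 and Ccn1, and also of Lats1, Lats2, Tead1 and Tead4, are higher in 4sU than in total libraries of both genotypes.

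Next came the coactivators on which the kinases act. Yap1 (ENSMUSG00000053110.13, chr9:7931999-8004596, minus strand) had 229.8, 229.4 and 248.3 CPM in wild-type and 244.9, 241.6 and 253.7 CPM in KO total libraries. The groups overlapped, and the log2 change of 0.06 had a 95% interval from -0.04 to 0.16 (limma adjusted p = 0.265). In 4sU RNA every KO library was above every wild-type library, at 160.1, 156.8 and 159.5 CPM against 115.8, 117.5 and 114.0 CPM. Nascent Yap1 rose 1.37-fold (log2 change 0.46, SE 0.0608, limma adjusted p = 1.44e-07). Its stability fell, with a log2 change of -0.39 between genotypes (limma adjusted p = 0.000516, SE 0.0783), at the 19.9 percentile of all genes. Scaling by library size only, in place of TMM, brought the total RNA change of Yap1 past the threshold (log2 change 0.12, limma adjusted p = 0.0401, with a range of 0.0401 to 0.619 over the 16 alternatives).

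Wwtr1 (ENSMUSG00000027803.14, chr3:57455649-57575910, minus strand) encodes TAZ, the paralog of YAP, and holds both an ESCC 7mer and a miR-17 8mer. Its total level was 118.2, 125.6 and 126.3 CPM in wild-type and 130.7, 130.3 and 127.4 CPM in KO libraries. Though the replicates did not overlap, the log2 change was only 0.07 (95% interval -0.04 to 0.18) and did not pass the test (limma adjusted p = 0.288). Nascent Wwtr1 was at 96.5, 98.3 and 94.1 CPM in wild-type and 111.8, 119.2 and 113.3 CPM in KO libraries, a rise with a log2 change of 0.25 between genotypes (limma adjusted p = 0.00115, SE 0.064). The stability change, -0.19 on the log2 scale, had a 95% interval from -0.36 to -0.01 and did not pass after adjustment (limma adjusted p = 0.144). Yap1 and Tead1 also hold a miR-17 site. None of these 3 members was called higher in stability, against 5.02% of all genes, so 3 genes say little here. Among genes with a miR-17 8mer the median stability change was 0.11 on the log2 scale. It was -0.03 among genes with miR-17 7mers only and -0.12 among genes with no miR-17 site. Whether the sites act was not tested. The miR-17 sites of the 3 members are shown with the site in capitals.
Wwtr1, chr3:57457188-57457195, minus strand, 8mer: agggtcagggtGCACTTTActgggaagggc
Tead1, chr7:112899969-112899976, plus strand, 8mer: aagcctcagtgGCACTTTAcacatatattc
Yap1, chr9:7934170-7934176, minus strand, 7mer: cctttcaccatCACTTTAactgaacacaca

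The TEAD factors, which bring YAP and TAZ to DNA, differed from each other. Tead2 (ENSMUSG00000030796.17, chr7:45215753-45233644, plus strand), a TEAD gene active in early embryos, had 258.8, 262.8 and 280.8 CPM in wild-type total libraries and 103.5, 95.4 and 111.6 CPM in KO total libraries. All KO values were below all wild-type values, and total Tead2 fell to 0.386 of the wild-type level (log2 change -1.38, SE 0.064, limma adjusted p = 2.59e-18). Its 4sU libraries had 84.92, 81.98 and 94.99 CPM in wild-type and 46.4, 43.7 and 36.4 CPM in KO libraries. Again the groups stood apart (log2 change -1.06, SE 0.0948, limma adjusted p = 4.5e-11). The stability change of Tead2, -0.32 on the log2 scale (SE 0.114), lay at the edge of the threshold, with a limma adjusted p of 0.0547. With the same-numbered 4sU and total libraries of a genotype taken as 1 culture, which the labels do not state, and used as a replicate block the adjusted p was 0.0387, with the replicate number as a block it was 0.031, and the quasi-likelihood test of edgeR gave an adjusted p of 0.0454. Without replicate 3 of the Dgcr8 KO cells the stability change was -0.48 (limma adjusted p = 0.00583), and without replicate 3 of the wild-type cells it was -0.35 (limma adjusted p = 0.0459). Over the 16 alternatives the adjusted p ranged from 0.00583 to 0.274.

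Tead4 (ENSMUSG00000030353.15, chr6:128224288-128300813, minus strand) is the TEAD gene needed to form trophectoderm. Its total level was 54.5, 52.4 and 51.7 CPM in wild-type and 66.7, 66.3 and 60.2 CPM in KO libraries, a modest rise without overlap (log2 change 0.29, SE 0.074, limma adjusted p = 0.00103). The nascent level was 54.7, 59.2 and 55.0 CPM in wild-type and 106.0, 106.6 and 92.0 CPM in KO libraries. Nascent Tead4 thus rose 1.80-fold (log2 change 0.85, SE 0.0776, limma adjusted p = 6.6e-11), and its stability fell, with a log2 change of -0.56 between genotypes (limma adjusted p = 0.000316, SE 0.107).

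Tead1 (ENSMUSG00000055320.17, chr7:112679318-112906807, plus strand), a broadly expressed TEAD gene, did not pass the test in any of the comparisons. Its total level was 156.1, 148.0 and 137.2 CPM in wild-type and 159.9, 158.7 and 159.2 CPM in KO libraries (log2 change 0.12, 95% interval -0.01 to 0.25, limma adjusted p = 0.106). Nascent Tead1 was at 188.5, 178.4 and 156.7 CPM in wild-type and 155.1, 176.8 and 179.5 CPM in KO libraries, which overlapped widely (log2 change -0.03, 95% interval -0.17 to 0.11, limma adjusted p = 0.704), and the sign turned without replicate 1 of either genotype. Its stability change of 0.15 on the log2 scale had a 95% interval from -0.04 to 0.35 (limma adjusted p = 0.306). The total RNA change passed the threshold with RLE scaling (log2 change 0.15, limma adjusted p = 0.0449) and with library size only (log2 change 0.17, limma adjusted p = 0.0226), in a range of 0.0226 to 0.417 over the 16 alternatives.

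Among the junction proteins, Amotl1 (ENSMUSG00000013076.17, chr9:14541966-14645056, minus strand), which binds YAP, had 97.7, 90.6 and 93.3 CPM in wild-type total libraries and 33.6, 31.3 and 30.6 CPM in KO total libraries. It fell to 0.341 of the wild-type level (log2 change -1.55, SE 0.0765, limma adjusted p = 1.15e-17). Its 4sU libraries had 66.8, 73.6 and 63.5 CPM in wild-type and 24.8, 23.1 and 22.7 CPM in KO libraries, also a fall (log2 change -1.52, SE 0.0999, limma adjusted p = 3.29e-14). Both falls left a clear gap between the genotypes. Stability of Amotl1 gave a log2 change of -0.03 with a 95% interval from -0.29 to 0.23, and its sign turned with RLE (0.06) or upper-quartile scaling (0.04). Amotl1 was the one member with an ESCC site whose total RNA was lower in KO cells.

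Amotl2 (ENSMUSG00000032531.15, chr9:102716802-102733418, plus strand), a paralog that is also a YAP target, moved in opposite directions in the 2 kinds of library. Its total level was 310.1, 280.1 and 312.9 CPM in wild-type and 238.3, 254.1 and 228.8 CPM in KO libraries, a fall without overlap (log2 change -0.32, SE 0.0584, limma adjusted p = 1.47e-05). The 4sU level was 770.9, 794.7 and 771.3 CPM in wild-type and 954.6, 951.9 and 835.3 CPM in KO libraries, a rise (log2 change 0.23, SE 0.0508, limma adjusted p = 0.000306). The stability of Amotl2 fell, with a log2 change of -0.55 between genotypes (limma adjusted p = 4.95e-06, SE 0.0774).

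Ccn1 (ENSMUSG00000028195.4, chr3:145646976-145649981, minus strand, named Cyr61 in older releases) is, like Amotl2 and Lats2, generally named as a YAP target. Its total level was 58.9, 65.7 and 58.1 CPM in wild-type and 83.0, 81.1 and 79.0 CPM in KO libraries, a 1.33-fold rise (log2 change 0.41, SE 0.0798, limma adjusted p = 3.62e-05). Nascent Ccn1 was at 423.3, 454.9 and 422.3 CPM in wild-type and 757.1, 678.7 and 627.8 CPM in KO libraries, and rose 1.58-fold (log2 change 0.66, SE 0.0553, limma adjusted p = 8.42e-12). In both kinds of library the genotypes did not overlap. The stability change of -0.25 on the log2 scale (SE 0.097) did not pass the test (limma adjusted p = 0.0767), but did with the replicate number as a block (limma adjusted p = 0.0319) and without replicate 3 of the Dgcr8 KO cells (log2 change -0.30, limma adjusted p = 0.0347), in a range of 0.0319 to 0.409 over the 16 alternatives.

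Within wild-type cells the members also differed in how much of their RNA was labelled during the pulse. The log2 ratio of total to 4sU CPM, relative to the median of all genes tested, was lowest for Ccn1 at -2.92 ± 0.026 (SD, n = 3), at the 7.18 percentile of genes. Amotl2 followed at -1.46 ± 0.126, Lats2 at -1.30 ± 0.0988 and Lats1 at -1.24 ± 0.0432. Tead1 at -0.33, Tead4 at -0.18, Wwtr1 at 0.27 and Amotl1 at 0.38 were close to the median. Yap1 at 0.93 ± 0.0916 and Tead2 at 1.53 ± 0.0486 had the highest ratios, Tead2 at the 92.7 percentile. The kinases thus had low ratios in wild-type cells, at the 22.0 percentile for Lats2 and the 22.9 percentile for Lats1. In Dgcr8 KO cells Lats2 stood at -0.24 ± 0.131, at the 43.4 percentile, and Lats1 at -0.35 ± 0.133, at the 40.3 percentile. Ccn1 and Amotl2 stayed lowest, at -3.08 ± 0.111 and -1.92 ± 0.079. These ratios are a description of relative stability and assume that labelling was equal across genes, and their reference moves with the filter on low counts. With every gene that had a count kept, the ratios of Tead1 (0.23) and Tead4 (0.39) turned positive, and with 3 CPM asked of each library that of Wwtr1 was -0.0044. Replicates of the ratio pair the total and 4sU libraries by number.

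**Figure D4:**
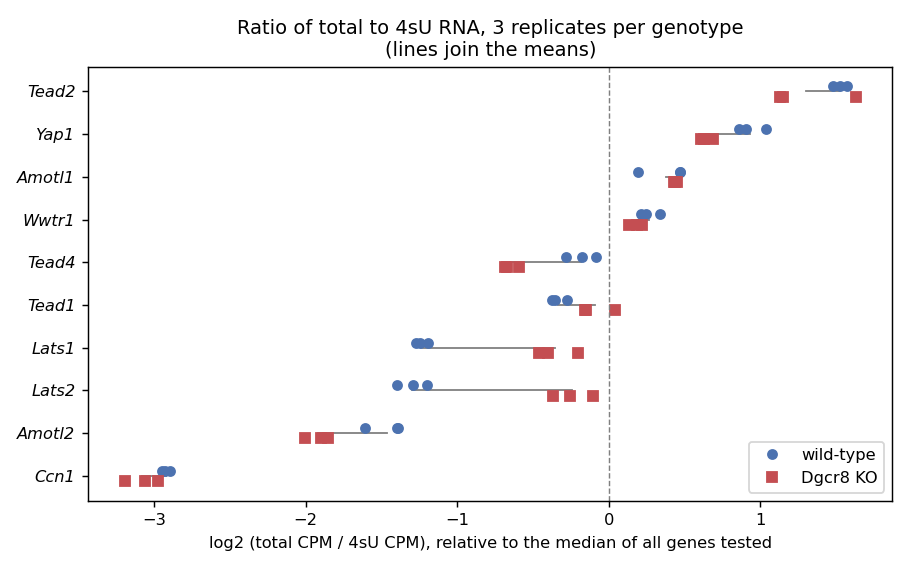
Log2 ratio of total to 4sU CPM of each Hippo pathway gene, relative to the median of all genes tested, in wild-type (blue circles) and Dgcr8 KO cells (red squares), with 3 replicates each and grey lines between means. Lats1 and Lats2 have means of -1.24 and -1.30 in wild-type cells and of -0.35 and -0.24 in KO cells, while Ccn1 lies lowest in both.

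Upstream and core regulators outside the 10 members were counted from a list of 23 genes, of which 20 were tested. Fat4, an atypical cadherin, had 0 or 1 counts, while Dchs1, its ligand, had at most 9 counts and Amot at most 5 counts per library, and these were not tested. In total RNA 9 of the 20 were higher in Dgcr8 KO cells (27.2% of all genes tested) and 4 lower (36.7% of all genes), with a median log2 change of 0.07 against -0.09 for all genes. In 4sU RNA 9 of the 20 were higher (28.3% of all genes) and 3 lower (28% of all genes). For stability 2 of the 20 were higher (5.02% of all genes) and 3 lower (11.1% of all genes). Ptpn14, a phosphatase that binds YAP, had the largest rise in total RNA of the list (log2 change 1.09, limma adjusted p = 2.64e-17), with a nascent log2 change of 1.09 (limma adjusted p = 4.91e-15). Nf2, which encodes the junction protein merlin that recruits LATS, rose most in nascent RNA (log2 change 1.18, limma adjusted p = 4.73e-16), with a total log2 change of 0.72 (limma adjusted p = 2.28e-14). Rassf1, a scaffold of the MST kinases, rose in nascent RNA by 1.02 on the log2 scale (limma adjusted p = 3.34e-12) and in total RNA by 0.71 (limma adjusted p = 2.22e-05).

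Genes generally named as YAP, TAZ and TEAD targets were counted from a list of 18, of which 14 were tested. The list leaves out Ccn1, Lats2 and Amotl2, which were counted as members. In total RNA Ccn1 and Lats2 were called higher and Amotl2 lower. Ankrd1, Rbms3, Foxf2 and Ccdc80 had at most 8 counts in any library. In total RNA 11 of the 14 were higher in Dgcr8 KO cells (27.2% of all genes tested) and 3 lower (36.7% of all genes), with a median log2 change of 1.00 against -0.09 for all genes. In 4sU RNA 9 of the 14 were higher (28.3% of all genes) and 3 lower (28% of all genes), with a median of 0.69 against -0.02. For stability 2 of the 14 were higher (5.02% of all genes) and 0 lower (11.1% of all genes). Nt5e, a surface nucleotidase, had the largest rise (total log2 change 4.15, limma adjusted p = 1.39e-19; nascent 3.81, limma adjusted p = 5.6e-14). Axl, a receptor tyrosine kinase, rose by 2.39 in total RNA (limma adjusted p = 2.82e-11) and by 1.74 in nascent RNA (limma adjusted p = 2.95e-07) on the log2 scale. Fjx1, the ortholog of fly four-jointed, rose by 1.71 (limma adjusted p = 4.98e-09) and 1.62 (limma adjusted p = 7.99e-12) in the same order. Against them, Nuak2, a kinase of the AMPK family, fell, with a total log2 change of -1.63 (limma adjusted p = 7.41e-06) and a nascent one of -0.91 (limma adjusted p = 4.67e-06). F3, tissue factor, fell too, with a total log2 change of -0.95 (limma adjusted p = 0.00316) and a nascent one of -1.48 (limma adjusted p = 1.06e-07). Counts of these named genes were low in the group with less RNA. In wild-type total libraries Axl had 14 to 36, Nt5e 24 to 34 and Fjx1 32 to 38 counts, and Nt5e had 9 to 19 in wild-type 4sU libraries. In KO total libraries Nuak2 had 13 to 26 and F3 14 to 25 counts. Both lists were written with earlier results of these data known, and many of these genes are known to answer to other pathways as well.

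**Figure D5:**
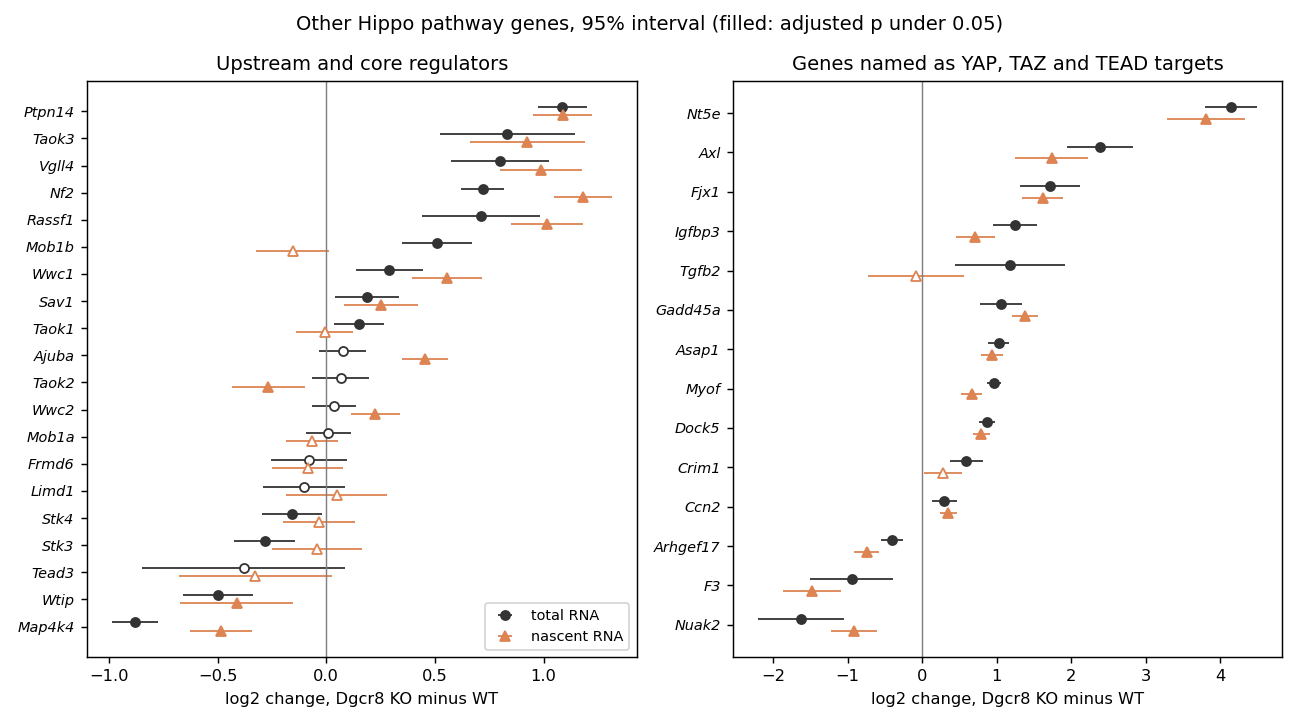
Log2 change in Dgcr8 KO against wild-type cells of the 20 upstream and core regulators (left) and 14 target genes (right) that were tested, in total RNA (circles) and nascent RNA (triangles), with 95% intervals from limma (n = 3 per group). Filled marks have an adjusted p under 0.05. Most target genes lie right of 0 and Nt5e lies farthest at 4.15 in total RNA, while the regulators lie on both sides.

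The TEAD core motif GGAATG, searched on both strands in windows from 250 bases before to 50 bases after gene starts (RefSeq, GRCm38.p6), was present in 14.7% of 32851 promoters. RefSeq promoters were found for 8 of the members, and 6 of their 10 promoters held the motif. These belonged to Lats2 (1 of its 2 promoters), Yap1, Wwtr1 (the same site in both of its overlapping promoters), Amotl2 and Ccn1. The windows of Ccn1, Amotl2 and Lats2, the members generally named as YAP targets, are printed on the strand of the gene. The motif or its reverse complement CATTCC is in capitals.
Ccn1, chr3:145650071-145650100, minus strand, 103 bases before the start: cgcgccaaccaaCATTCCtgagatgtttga
Amotl2, chr9:102717727-102717756, plus strand, 65 bases before the start: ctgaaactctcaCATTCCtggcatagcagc
Lats2, chr14:57746102-57746131, minus strand, 4 bases after the start: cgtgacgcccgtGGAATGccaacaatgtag
Nascent RNA of these 3 genes rose in Dgcr8 KO cells, as did that of Yap1 and Wwtr1. Nascent Tead4, for which no promoter was found, rose too, and 28.3% of all genes tested were called higher in nascent RNA. The share among all genes with the motif was not computed. Of the 3 members whose promoters were read and lacked the motif, Lats1 did not pass the test in nascent RNA. Tead2 and Amotl1 fell, against 28% of all genes called lower in nascent RNA. Whether the motif bears on any of these changes was not tested. With a motif this short, and 10 promoters, this is a description of the sequences and not a test.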

How the data were processed

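Total and 4sU RNA libraries of 12 samples were analysed. The authors deposited raw counts, not normalized. Per the labels and the methods, adapters were trimmed with cutadapt 1.14, reads were mapped uniquely with STAR 2.5.3a to mm10, and exonic reads were counted by strand with featureCounts 1.5.3 on GENCODE M14. Unique mapping can under-count near-identical paralogs. Per the labels, 2 library kits were used, but which library had which is not given in the sources used here. The deposited table also gives a gene length, another value used here for RPKM only.

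Groups and replicate numbers came from the sample titles. Identifiers were matched to GENCODE M21 (51274 of 51467 gene rows). The 92 ERCC spike-in rows held 1 count in all and were left out. Genes with at least 3 CPM in at least 3 libraries (14033) entered limma 3.58.1 (voom; R 4.3.3; TMM from edgeR 4.0.16). The linear model of the study, genotype by library type, held all 12 libraries. P-values are Benjamini-Hochberg adjusted over all 14033 genes. A gene was called at an adjusted p under 0.05, and separately also with an absolute log2 change over 1. The fit was tested on simulated counts. DESeq2 1.42.0, edgeR and the other alternatives are given in the closing section.

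Members and lists were chosen with earlier results of these data known. Named genes were all members, Dgcr8 and markers of cell types. From each further list and comparison, at most 4 called genes with an absolute log2 change over 1 were named, by size. Reads carry no molecular identifiers, so the floor of 3 counts covers counting error only. Depth ranged from 4593914 to 9295245 counts. Same-numbered KO and wild-type libraries did not deviate together (correlation -0.0825 to 0.0777). Per the labels each sample was split into 4sU and total RNA, but they do not say that equal numbers mark a split sample, and same-numbered 4sU and total libraries correlated weakly (0.0161 to 0.105). The culture block and the ratios per replicate assume it. Spearman correlations within groups were 0.988 to 0.996, and no pair of replicates agreed within sampling noise (chi-square per degree of freedom at least 1.58).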

Additional observations from a re-analysis of the deposited data

Results flagged for a closer look

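Among the members, Amotl2 was flagged because its total and nascent RNA moved in opposite directions between genotypes, and the interaction was called. Only members were searched for this, and the share over all genes was not computed. The pattern is not particular to Amotl2. Of the ESC markers, Nanog, Esrrb and Klf4 also fell in total RNA and rose in nascent RNA, with the interaction called. Their stability changes were -0.34, -0.45 and -0.55, and the other ESC markers did not meet the rule. The log2 change was -0.32 in total RNA and 0.23 in nascent RNA, and the stability change was -0.55 (SE 0.0774, limma adjusted p = 4.95e-06). All 3 KO replicates lay below the 3 wild-type replicates in total RNA and above them in 4sU RNA.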

How the results depend on the processing

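No called member lost its call under any alternative run in any of the 3 comparisons. With the limit on size, the members called in the main fit were 3 in total RNA, 2 in nascent RNA and 0 in stability. Over the main fit and the alternatives the log2 change of Lats2 ranged from 0.9424 to 1.035 in nascent RNA and from 0.8873 to 1.059 in stability. That of nascent Tead2 ranged from -1.118 to -0.9366, so which members pass the limit on size depends on the setting. The cause of the changes below was not tested. Among the changes between genotypes of the members, direction turned only for values that had not passed the test: the nascent log2 change of Tead1 was 0.023 without wild-type replicate 1 and 0.04397 without Dgcr8 KO replicate 1 (range over replicates left out -0.115 to 0.04397), and the stability change of Amotl1 was 0.05942 with RLE scaling, 0.03667 with upper-quartile scaling, 0.06281 with DESeq2, 0.0053 without wild-type replicate 1 and 0.0106 without wild-type replicate 3 (range over replicates left out -0.1118 to 0.0106). With the replicate number as a replicate block the stability calls of Tead2 (-0.31, adjusted p = 0.031) and Ccn1 (-0.26, adjusted p = 0.0319) were gained, and with the assumed culture as a block that of Tead2 (-0.32, adjusted p = 0.0387). The blocks changed no other member's call. Of the 34 other pathway genes tested, 7 were called for stability (all genes: 5.02% higher and 11.1% lower), with 4 to 6 when a replicate was left out, the lowest without Dgcr8 KO replicate 2. Ratios of total to 4sU signal shifted together with the filter on low counts, since the median used as reference moved: for Lats2 the ratio was -0.73 when every gene with a count was kept and -1.57 when 3 CPM was asked of each of the 12 libraries. The sign of the ratio turned for Tead1 (0.2342) and Tead4 (0.3886) under the former and for Wwtr1 (-0.004392) under the latter. The count of members with an ESCC site was 4 in any annotated 3′ UTR too.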
